A study of Mus musculus with 10 samples.

Results

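HOX genes encode homeodomain transcription factors that tell cells where they lie along the body axis. In the mouse they stand in 4 clusters, a, b, c and d, and within a cluster the order of the genes along the chromosome follows the order of the body regions in which they act. Genes with a low paralogue number, at the 3′ end of a cluster, act from the head and neck downward, and genes with a high number, at the 5′ end, act in the lower trunk, the limbs and the tail. Adult skin keeps such a pattern, above all in its fibroblasts, so that the set of HOX genes in a skin sample is used as a record of where on the body it was taken. The genes described here are all rows of the deposited tables named Hoxa, Hoxb, Hoxc or Hoxd followed by a number, without Hoxc13, which also acts in hair. There were 38 of them among 24358 gene symbols. The question was whether the 2 biopsies taken from a mouse carried the same set.

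RNA was sequenced from 10 full-thickness biopsies of dorsal skin of 5 C57Bl/6 mice, 1 lesional and 1 uninvolved biopsy from each. All 5 mice carry the IL-17C transgene, which gives psoriasis-like skin inflammation, so there is no skin without the transgene among the groups. The labels call mice 2237, 2275 and 2296 IL-17C+ and mice 2392 and 2465 IL-17C+KO, and the series title names Il6 as the gene knocked out. The mice were 10 or 14 weeks old, and neither the age of a single mouse nor the promoter of the transgene is in the sources used here. The labels also do not say where on the back a biopsy was taken, so the position of a biopsy and its lesional state cannot be told apart in these data.

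The libraries held 21056850 to 31072491 counts. Il6, the gene named as knocked out, was at 0.159 to 0.371 CPM (counts scaled to library size, TMM scaled) in uninvolved IL-17C+ skin and at 3.17 and 2.11 CPM in the uninvolved libraries labelled IL-17C+KO. In lesional skin Il6 was at 0.700 to 2.71 CPM in IL-17C+ mice and at 11.9 and 13.4 CPM in the libraries labelled IL-17C+KO. A knockout of Il6 could not be read from these levels. Counts over a whole gene do not tell an intact transcript from an altered one, so whether the label is right was not tested. Keratinocyte markers were present throughout, with a sum over 10 genes of 19600 to 39700 CPM in uninvolved and 20200 to 29700 CPM in lesional skin. The sum over 10 skeletal muscle markers was 6130 to 43200 CPM in uninvolved and 669 to 5990 CPM in lesional skin, with no marker at 0 in all libraries. Fibroblast markers summed to 2870 to 4560 CPM in uninvolved and 6030 to 30000 CPM in lesional skin, and neutrophil markers to 60.5 to 2430 and 2210 to 12500 CPM. In bulk skin, fewer cells of a type and less RNA per cell cannot be told apart.

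Of the 38 HOX genes, 29 had enough counts to be tested. All 15 genes of paralogue numbers 4 to 8 and all 7 of numbers 9 and 10 were tested, with 7 of the 8 genes of numbers 1 to 3. None of the 8 genes of numbers 11 to 13 was, and the highest count of any untested gene in any library was 10. Hoxb13, Hoxd12 and Hoxd13 had no count in any library, and a count of 0 allows at most 3 counts, which is 0.0965 to 0.142 CPM at these depths. Hoxc13, which the rule left out, is the exception at the 5′ end, with 62 to 1627 counts. Per transcript length, Hoxb7 had the highest mean level, at 16.9 ± 4.73 FPKM (fragments scaled to transcript length and library size) in uninvolved and 9.73 ± 5.13 in lesional skin (SD, n = 5 in each). Hoxd8 followed with 13.5 ± 4.97 and 9.54 ± 2.26 FPKM, and Hoxb2 with 8.89 ± 3.38 and 9.48 ± 2.52. The spread between mice is larger than the gaps between these neighbours in the order. Between uninvolved and lesional skin the ranks of other genes differed widely, since Hoxa9 ranked 13 of 38 in uninvolved and 26 in lesional skin, and Hoxa7 ranked 6 and 17.

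**Figure D1:**
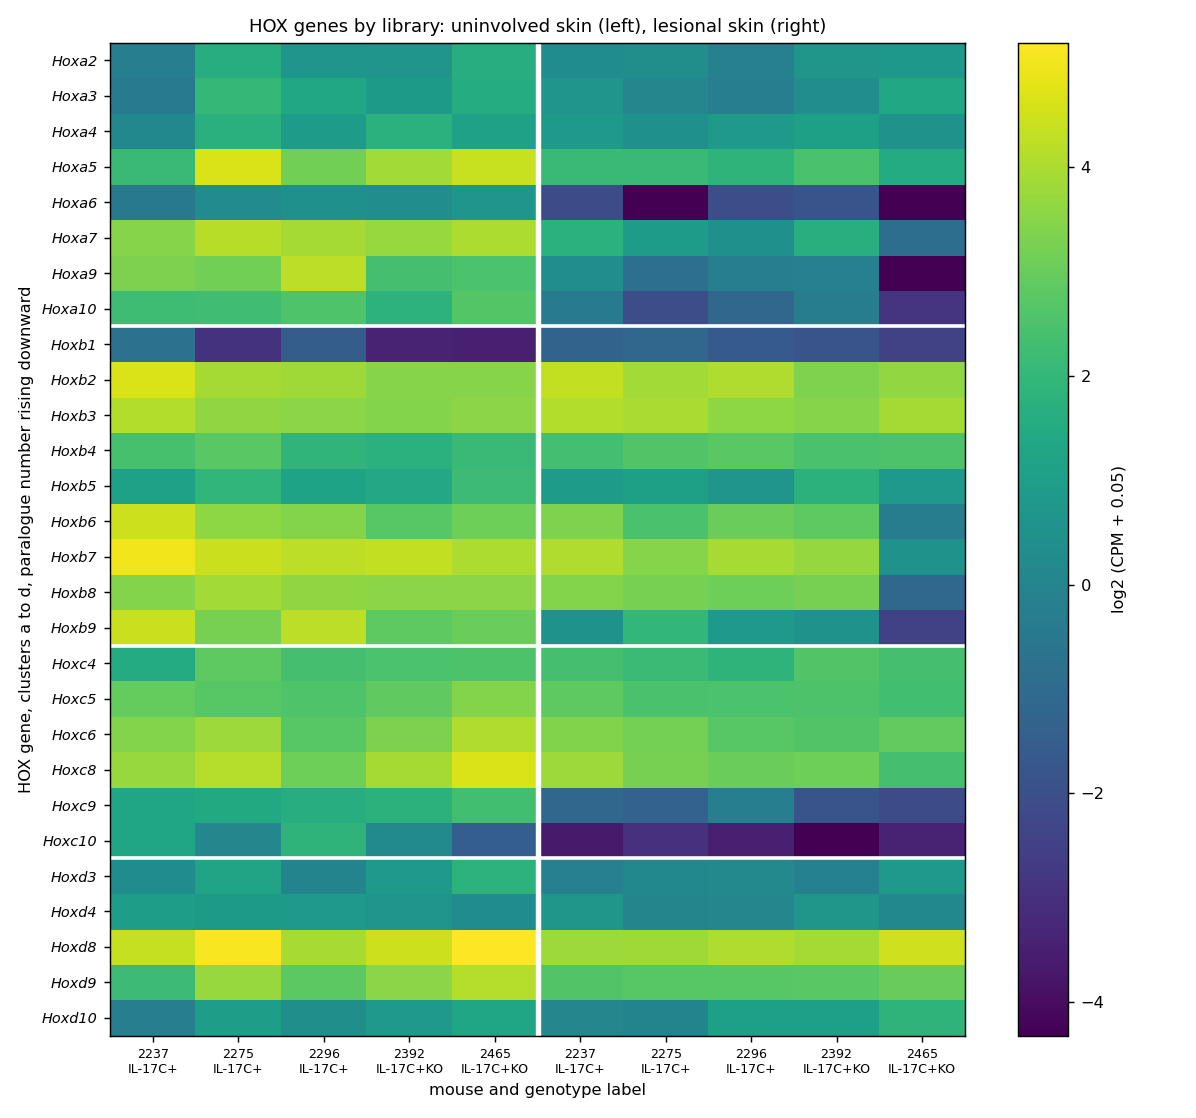
Level of 28 tested HOX genes in each library, as log2 (CPM + 0.05), with the 5 uninvolved libraries on the left and the 5 lesional libraries on the right in the same order of mice. Rows run by cluster with the paralogue number rising downward. The last rows of clusters a, b and c (Hoxa6 to Hoxa10, Hoxb9, Hoxc9 and Hoxc10) are darker in all 5 lesional libraries, while the rows of cluster d are not.

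The 2 biopsies of a mouse did not show the same set. In all 5 mice, 7 HOX genes were lower in the lesional biopsy by at least 1 log2 unit: Hoxa6, Hoxa7, Hoxa9, Hoxa10, Hoxb9, Hoxc9 and Hoxc10. For the same 7 genes every lesional library lay below every uninvolved library. Over all 16083 tested genes, 0.473% were lower by that much in all 5 mice, and 4.27% had all lesional libraries below all uninvolved libraries. No HOX gene had all lesional libraries above all uninvolved ones, against 2.98% of all genes.

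Hoxa9 acts in the lower trunk and lies on the minus strand at chr6:52223100-52231089 (GRCm38). In uninvolved skin it stood at 9.99, 8.92 and 18.8 CPM in IL-17C+ mice 2237, 2275 and 2296, and at 5.19 and 5.53 CPM in mice 2392 and 2465, labelled IL-17C+KO. In the lesional biopsies of the same mice it stood at 1.23, 0.506, 0.785, 0.830 and 0 CPM. The groups were far apart, since the lowest uninvolved value, 5.19 CPM, lay well above the highest lesional one, 1.23 CPM. The means were 9.68 ± 5.50 CPM and 0.671 ± 0.456 CPM (SD, n = 5), a ratio of 14.4. Its neighbour Hoxa10, which acts in the lumbar region, the hind limb and the reproductive tract, was at 4.66, 4.82, 5.87, 3.49 and 6.22 CPM in uninvolved skin in the same order of mice. The lesional values were 0.722, 0.194, 0.392, 0.754 and 0.0892 CPM, which do not overlap with these.

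Hoxb9 helps to pattern the ribs and lies at chr11:96271457-96276595 on the plus strand. It was at 21.7, 9.48, 18.7, 7.11 and 8.33 CPM in uninvolved skin and at 1.44, 3.89, 1.73, 1.40 and 0.134 CPM in lesional skin. Mouse 2275 showed the smallest difference, -1.27 on the log2 scale, and mouse 2465 the greatest, -5.30. In cluster c, Hoxc9, which acts in the thoracic region, was at 2.39, 2.71, 3.01, 3.44 and 4.95 CPM in uninvolved skin and at 0.391, 0.350, 0.785, 0.226 and 0.178 CPM in lesional skin. Hoxc10, a gene of the lumbar spinal cord and the hind limb at chr15:102966796-102971893, was nearly undetected in lesions. Its counts were 58, 25, 73, 25 and 8 in uninvolved skin and 1, 2, 1, 0 and 1 in lesional skin. The pooled ratio was 39.6, with a 95% interval of 16.7 to 123 that covers counting error only. Annotated exons of Hoxc10 share 166 bases with those of Hoxc5 on the same strand, and the sources used here do not say how shared reads were assigned.

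Cluster a differed over a longer stretch than the others. Hoxa7, which acts in the thoracic region, was at 10.9, 18.0, 15.1, 13.3 and 16.2 CPM in uninvolved skin and at 3.34, 1.83, 1.33, 3.09 and 0.490 CPM in lesional skin. The groups do not overlap, and the ratio of the means was 7.28. Hoxa6 was low throughout, with 16 to 40 counts in uninvolved libraries and 0 to 6 in lesional ones. For Hoxa5, which patterns the neck and upper thorax and acts in the lung, the uninvolved libraries of mice 2237, 2275, 2296, 2392 and 2465 were at 4.17, 25.2, 8.97, 14.6 and 21.2 CPM. The lesional libraries were at 4.24, 4.20, 3.57, 5.51 and 2.81 CPM, so that mouse 2237 showed no difference (0.03 on the log2 scale) and the groups overlapped. Hoxa2 to Hoxa4 overlapped between the skin types as well, at 0.702 to 4.02 CPM in all 10 libraries. The antisense RNA Hoxaas3 overlaps 20.4% of the exon bases of Hoxa7. It had 0 to 17 counts a library.

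**Figure D2:**
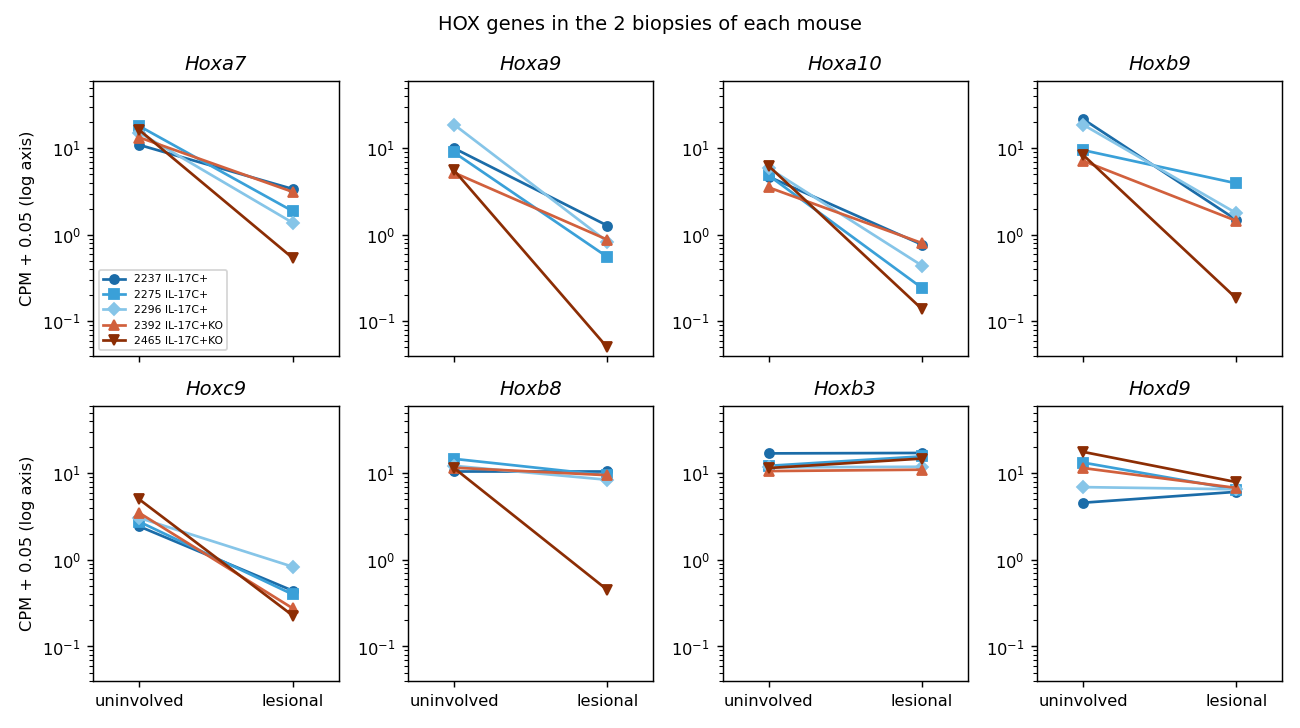
CPM plus 0.05 on a log axis for 8 HOX genes, with a line joining the uninvolved and the lesional biopsy of each mouse (blue: IL-17C+; red and brown: labelled IL-17C+KO). Hoxa7, Hoxa9, Hoxa10, Hoxb9 and Hoxc9 are lower in the lesional biopsy of all 5 mice, Hoxb8 differs widely in mouse 2465 alone (11.5 and 0.401 CPM), and Hoxb3 and Hoxd9 overlap between the skin types.

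The middle of cluster b set 1 lesional library apart. Hoxb8, which acts in the trunk and in spinal sensory circuits, was at 10.6, 14.7, 12.2, 11.6 and 11.5 CPM in uninvolved skin. In lesional skin it was at 10.6, 9.45, 8.40 and 9.50 CPM in mice 2237, 2275, 2296 and 2392 but at 0.401 CPM in mouse 2465. Hoxb7 and Hoxb6 showed the same picture, with 10.9 to 16.7 and 5.41 to 10.2 CPM in 4 lesional libraries and 1.43 and 0.758 CPM in that of mouse 2465. In this mouse Hoxb5 was at 4.53 CPM in uninvolved and 1.69 CPM in lesional skin, its greatest difference of the 5 mice (-1.38). Genes further to the 3′ end were not lower, since Hoxb4 was at 4.30 CPM in uninvolved and 5.80 CPM in lesional skin, and Hoxb3 at 11.5 and 14.8 CPM. Without mouse 2465, 8 members had all lesional libraries below all uninvolved ones, against 4.95% of all genes. They were the 7 above and Hoxb7.

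At the 3′ end of clusters b and c the biopsies were alike within the spread between mice. Hoxb2 (15.2 ± 5.74 and 14.8 ± 3.78 CPM in uninvolved and lesional skin), Hoxb3 (12.6 ± 2.53 and 14.1 ± 2.60) and Hoxc4 (5.32 ± 1.58 and 4.89 ± 0.905) overlapped between the groups. Hoxb3os, on the opposite strand and without counts of its own in these data, shares 27.3% of the exon bases of Hoxb2 and 52.9% of those of Hoxb3. Hoxb3, a gene of the hindbrain and neck, was slightly higher in the lesional biopsy in 5 of 5 mice, by 0.01 to 0.36 log2 units, as 9.13% of all genes were. Hoxc5 was lower in 5 of 5 mice, with log2 differences of -0.07 to -1.13, and its groups overlapped. In all, 9 members were lower in 5 of 5 mice (9.73% of all genes), the 7 above, Hoxb7 and Hoxc5. Hoxc6 and Hoxc8, which act in the thorax and forelimb region, were at 6.46 to 16.4 and 8.58 to 25.4 CPM in uninvolved skin and at 6.03 to 10.5 and 5.13 to 14.0 CPM in lesional skin. Both were lower in the lesional biopsy in 4 of 5 mice. Their log2 changes were -0.20 (SE 0.28) and -0.27 (SE 0.38) in IL-17C+ mice. In the mice labelled IL-17C+KO they were -0.94 (SE 0.35) and -1.56 (SE 0.48). There the adjusted p of Hoxc8 was 0.269 in edgeR and 0.038 in DESeq2.

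In cluster d all 5 tested genes overlapped between the skin types. Hoxd9, at chr2:74697727-74700208 on the plus strand, stood at 4.54, 13.3, 6.90, 11.5 and 17.7 CPM in uninvolved skin and at 6.08, 6.46, 6.51, 6.75 and 7.89 CPM in lesional skin. The lesional values lie within the uninvolved range, unlike those of Hoxa9, Hoxb9 and Hoxc9. Hoxd10, which acts in the lumbar spinal cord and hind limb, was at 0.784 to 2.38 CPM in uninvolved and 0.933 to 3.61 CPM in lesional skin and was higher in the lesional biopsy in 4 of 5 mice, while Hoxd3, Hoxd4, Hoxd8 and Hoxd9 were each lower in 4 of 5 mice. Hoxd8 was at 15.5 to 36.5 CPM in uninvolved and 13.9 to 22.8 CPM in lesional skin. Gm28230, on the same strand and without counts of its own in these data, shares 53.1% of the exon bases of Hoxd3 and 39.1% of those of Hoxd4. Hoxd1 had no count in uninvolved skin and 8 counts over the 5 lesional libraries, too few for a test.

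The tests over all genes gave the 7 genes the smallest p-values of the family but did not call them at the threshold used. Since the 7 were picked from the same pairs of biopsies, their place by p is no separate support. In edgeR's quasi-likelihood test with the mouse as a block, 8 of 16083 genes passed an adjusted p (Benjamini-Hochberg) of 0.05 over the 5 mice, 0.0497% of those tested, and none of them was a HOX gene. Hoxc10 (log2 change -5.18, SE 0.66), Hoxc9 (-3.13, SE 0.45), Hoxa10 (-3.66, SE 0.56), Hoxa9 (-3.97, SE 0.63) and Hoxa7 (-3.04, SE 0.49) each had an adjusted p of 0.066 in edgeR. Hoxb9 followed with -3.19 (SE 0.60, adjusted p = 0.0763 in edgeR). At an unadjusted p under 0.05, 11 HOX genes were lower and none higher, beside 11.5% and 10.1% of all genes. They were the 7 above with Hoxa5 (-1.65, SE 0.44), Hoxb7 (-1.19, SE 0.45) and, from cluster d, Hoxd8 (-0.60, SE 0.22) and Hoxd3 (-0.70, SE 0.30), which have adjusted p of 0.118 to 0.227 in edgeR. The median log2 change of the 29 genes was -0.60, beside -0.01 over all genes tested. Other tools gave calls: DESeq2 called 9 HOX genes over the 5 mice, all lower, where it called 12.7% of all genes (6.41% lower), and edgeR with no replicate block called 8, all lower, where it called 5.54% (3.16% lower). Without mouse 2237 edgeR with the block called 6 HOX genes among 1249 genes, and limma on log2 (FPKM + 0.1) called Hoxa9 (adjusted p = 0.0491) among 11 genes.

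Within the IL-17C+ mice 7 HOX genes had an unadjusted p under 0.05 in edgeR, all lower. Of all genes 2.87% were lower and 3.54% higher at that level, and no gene passed the adjusted threshold. The largest was Hoxc10, with a log2 change of -5.33 (SE 0.87, n = 3 mice, adjusted p = 0.497 in edgeR), followed by Hoxa9 with -3.89 (SE 0.85) and Hoxa10 with -3.64 (SE 0.76). In the mice labelled IL-17C+KO 11 HOX genes had an unadjusted p under 0.05 in edgeR, all lower. Of all genes 7.31% were lower and 6.16% higher at that level, and 2 genes of all those tested (0.0124%), no HOX gene among them, passed the adjusted threshold. Without mouse 2465, which leaves 1 mouse labelled IL-17C+KO, the median log2 change of the members was -0.56 in place of -0.94. Hoxc9 was first by p, at -4.31 (SE 0.57, n = 2 mice, adjusted p = 0.169 in edgeR), followed by Hoxa7 at -3.44 (SE 0.85). DESeq2 called 6 HOX genes in the first comparison, where it called 1.54% of all genes (0.572% lower), and 9 in the second, where it called 7.19% (3.99% lower). The difference of the 2 lesional effects passed for no gene in edgeR (188 genes, 1.17%, at an unadjusted p under 0.05; 6 genes by DESeq2). Hoxc9 was the 1 HOX gene with an unadjusted p under 0.05 for that difference (0.0335 in edgeR, difference of -1.84, SE 0.69, adjusted p = 1.0). Without mouse 2392 or 2465, which leaves 1 mouse labelled IL-17C+KO, the members' median difference of -0.40 became -0.86 and 0.11.

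**Figure D3:**
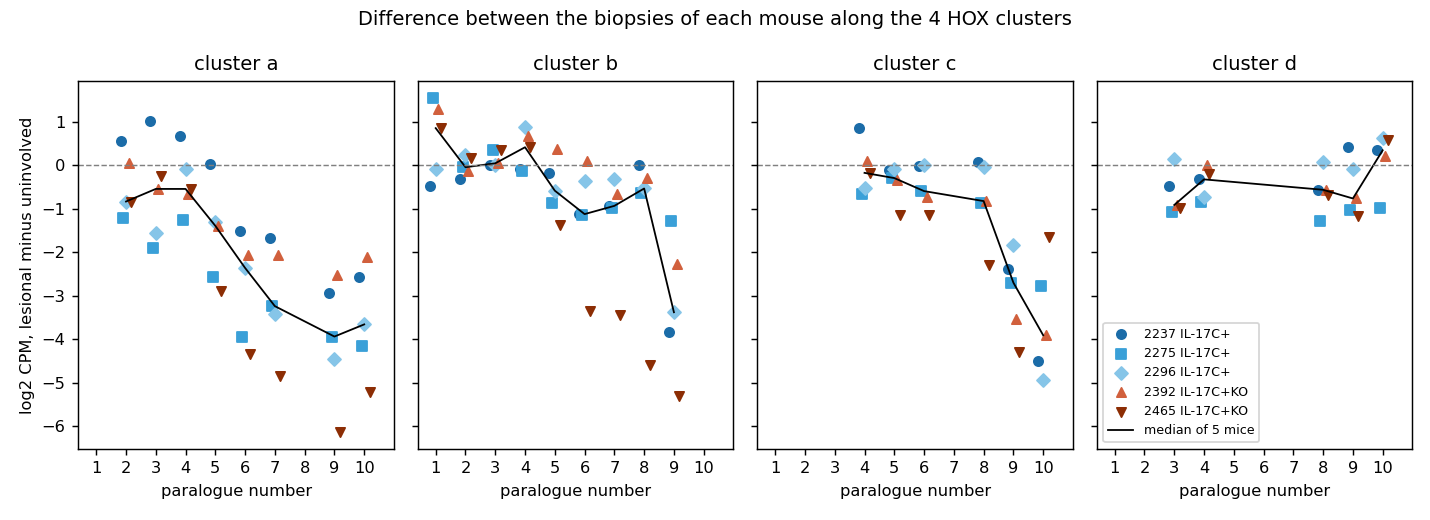
Lesional minus uninvolved log2 CPM in each of the 5 mice (points) and the median of the mice (line) for 28 tested HOX genes, by paralogue number in clusters a, b, c and d. The points of clusters a, b and c move downward toward the high numbers, to medians of -3.94 for Hoxa9, -3.38 for Hoxb9 and -3.91 for Hoxc10, while those of cluster d stay between -1.28 and 0.64.

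Ordered by place in the cluster, the tested genes of clusters a, b and c differed most at the 5′ end. Of numbers 1 to 3, the 3 genes of cluster a had log2 changes of -0.69 to 0.61 (median -0.49) and the 3 of cluster b of -0.01 to 0.75 (median 0.16) over the 5 mice. For the 13 genes of numbers 4 to 8 it was -0.77, with 12 of 13 below 0, and for the 5 genes of numbers 9 and 10 it was -3.66, with 5 of 5 below 0. The 5 tested genes of cluster d ranged from -0.70 to 0.18, with a median of -0.515 for numbers 4 to 8, beside -0.445 in cluster c, and of -0.18 for numbers 9 and 10. The difference between clusters was not tested. The steps along the clusters were not the same. In cluster a the median over mice was already -1.39 at Hoxa5 and -2.36 at Hoxa6, in cluster c it was -0.82 at Hoxc8 and -2.70 at Hoxc9, and in cluster b it was -1.12 at Hoxb6, -0.93 at Hoxb7, -0.53 at Hoxb8 and -3.38 at Hoxb9.

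As shares of the summed HOX FPKM, genes of numbers 9 and 10 made up 12.4 to 21.1% in uninvolved and 5.74 to 10.9% in lesional skin. The lesional library of mouse 2465 had the highest of the lesional shares, and in it cluster d made up 36.7% of the sum, against 14.4 to 19.8% in the other lesional libraries. Genes of numbers 1 to 3 made up 11.2 to 17.1% in uninvolved skin and 17.2 to 29.2% in lesional skin. The summed level itself was 116 ± 16.8 FPKM in uninvolved and 71.3 ± 12.3 FPKM in lesional skin (SD, n = 5). The mean paralogue number weighted by FPKM was 6.25 to 6.54 in uninvolved and 5.58 to 5.95 in lesional libraries, so the groups did not overlap. Within cluster a it was 6.25 ± 0.557 and 4.52 ± 0.661, and within cluster d 8.04 ± 0.1 and 8.09 ± 0.0675.

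**Figure D4:**
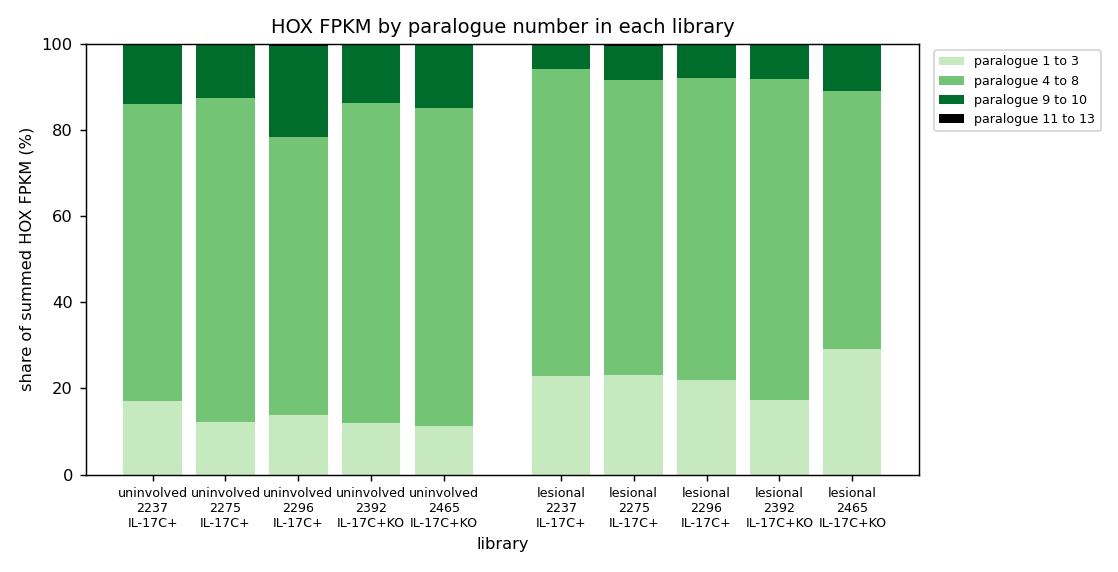
Share of the summed HOX FPKM in each of the 10 libraries by paralogue number, as stacked bars that add to 100%. The dark part, numbers 9 and 10, is 12.4 to 21.1% in uninvolved and 5.74 to 10.9% in lesional libraries, and the part of numbers 11 to 13 is below 0.5% in each.

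Compared as whole profiles by correlation, the 2 biopsies of a mouse were in the median less alike than biopsies of the same skin type from different mice. The median absolute log2 difference over the same genes did not show this against uninvolved skin. It was 0.607 within a mouse, 0.609 between uninvolved and 0.46 between lesional biopsies of different mice (medians over pairs). Over the 26 HOX genes with a mean of at least 1 CPM, the Pearson correlation of log2 CPM between the biopsies of mice 2237, 2275, 2296, 2392 and 2465 was 0.737, 0.732, 0.512, 0.732 and 0.293. Between lesional biopsies of different mice it had a median of 0.926 over 10 pairs, and between uninvolved ones 0.885 over 10 pairs. Between lesional and uninvolved biopsies of different mice the median was 0.651 over 20 pairs. Every uninvolved library had its highest correlation with an uninvolved library of another mouse, and every lesional library with a lesional one. Without mouse 2465 the medians were 0.732 within a mouse, 0.939 between lesional and 0.885 between uninvolved biopsies. These are correlations across genes of 1 family measured in the same libraries, and such genes are not independent replicates.

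**Figure D5:**
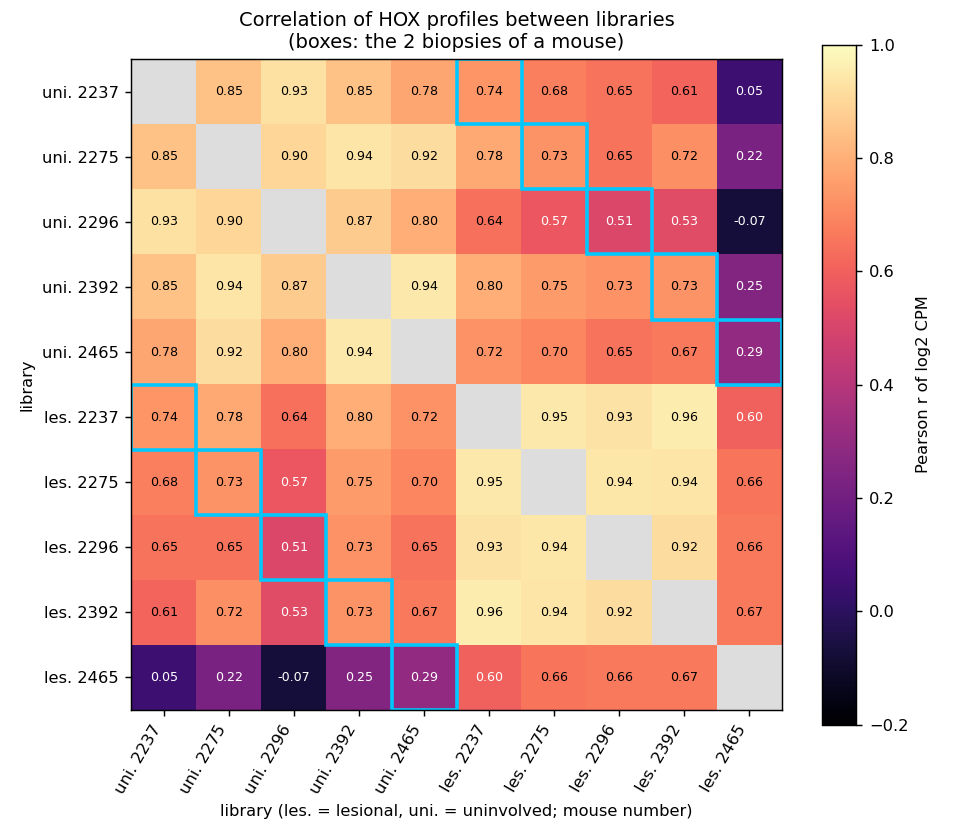
Pearson correlation of log2 CPM over 26 HOX genes between every 2 of the 10 libraries, with boxes around the 2 biopsies of a mouse. The uninvolved block (0.778 to 0.945) and the lesional block without mouse 2465 (0.920 to 0.957) are lighter than the boxed pairs (0.293 to 0.737), and the lesional library of mouse 2465 has the lowest values (-0.0719 to 0.666).

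After the mean of each skin type was subtracted, the correlation between the biopsies of a mouse was -0.189 to 0.646 (median 0.254), and between lesional and uninvolved biopsies of different mice -0.615 to 0.508 (median -0.156). The ranges overlap, and centring ties the second set of values to the first, so they are no independent comparison. Tests of differences among the 5 mice called no gene in edgeR (1065 genes, 6.62%, at an unadjusted p under 0.05; 436 genes by DESeq2, no HOX gene among them), and Hoxb2 had the smallest p of the family (0.0262 in edgeR, adjusted p = 0.71). Hoxb2 was at 25 and 19.9 CPM in the biopsies of mouse 2237 and at 10.1 to 16.7 CPM in the other 8 libraries. Among the 3 IL-17C+ mice no HOX gene had an unadjusted p under 0.05 in edgeR, beside 3.36% of all genes.

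Between the genotype labels the HOX genes differed little against their spread. In uninvolved skin no gene passed the adjusted threshold in edgeR (581 of 15568 genes at an unadjusted p under 0.05, 3.73%; 11 genes by DESeq2), and of 28 tested HOX genes 1 was higher (1.91% of all genes) and 2 lower (1.82%) at an unadjusted p under 0.05. The lower ones were Hoxa9 and Hoxb9, with log2 differences of -1.22 (SE 0.43) and -1.10 (SE 0.43) and an adjusted p of 0.849 in edgeR. Without mouse 2275, 7 HOX genes had an unadjusted p under 0.05 in edgeR, as 2422 of 15367 genes did. Without mouse 2237 and without mouse 2296, 2 HOX genes had, beside 324 of 15269 and 270 of 15363 genes. Leaving out mouse 2392 or 2465 leaves 1 library with the IL-17C+KO label. The median log2 difference of the HOX genes, 0.26 with all mice, was then 0.28 and -0.10. For 2 of 29 HOX genes both libraries labelled IL-17C+KO lay above all 3 IL-17C+ libraries (10.4% of all genes) and for 7 below (10.7%). In lesional skin the counts were 2 above (11.7%) and 4 below (13.3%). Of 26 tested HOX genes none had an unadjusted p under 0.05 there in edgeR, and 1145 of 15691 genes (7.3%, with 4.77% higher and 2.53% lower) did. Without mouse 2296, 1 of 25 tested HOX genes had such a p, as 1995 of 15548 genes did. Without mouse 2392, which leaves 1 library with the IL-17C+KO label, the median log2 difference of the HOX genes was -0.21 in place of -0.04. Of all genes, 0 passed the adjusted threshold in edgeR and 213 in DESeq2, none of them a HOX gene. Hoxb2 came first, with a log2 difference of -0.57 (SE 0.23, adjusted p = 0.692 in edgeR).

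The RNA just 5′ of Hoxb9 differed in the same direction. Gm53, a long intergenic RNA at chr11:96251105-96264868 on the plus strand, was the 1 gene of all those tested that was lower among the 8 called over the 5 mice in edgeR (log2 change -3.23, SE 0.33, adjusted p = 0.0363). It was chosen after its values were seen. Its counts were 86, 61, 107, 32 and 40 in the uninvolved and 8, 11, 17, 3 and 3 in the lesional libraries of mice 2237, 2275, 2296, 2392 and 2465, so the groups do not overlap. Without mouse 2237 the adjusted p was 0.0219 in edgeR, and without each of the other mice it was 0.0945 to 0.175. With limma-voom it was 0.0512.

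Between Gm53 and Hoxb9 lies Mir196a-1, a microRNA gene at chr11:96265164-96265265. It had 7, 7, 7, 2 and 5 counts in uninvolved skin and 0 in each of the 5 lesional libraries, too few for a test, and it was also chosen after its values were seen. These are reads of the transcript over the gene and not of the mature microRNA. HOX clusters hold microRNAs of the families miR-10 and miR-196, which pair with the RNA of HOX genes. The mature sequences of RefSeq (GRCm38.p6) are shown with the seed, bases 2 to 8, in capitals, because the seed sets the pairing with a target.
miR-10a-5p: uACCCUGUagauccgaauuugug
miR-10b-5p: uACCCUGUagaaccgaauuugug
miR-196a-5p: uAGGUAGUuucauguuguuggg
miR-196b-5p: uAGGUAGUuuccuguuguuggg
The members of a family share their seed. The other genes of these microRNAs, Mir196a-2, Mir196b, Mir10a and Mir10b, had no count in any library. Several HOX genes are known targets of miR-196, and Hoxb8 is the one known for a nearly full match. A search of its GENCODE M21 transcript for the sequence that pairs fully with the microRNA found a site at chr11:96284888-96284909, in the 3′ UTR, that matched at 21 of 22 bases. It is shown beside the full match, with the part that faces the seed in capitals.
site in Hoxb8: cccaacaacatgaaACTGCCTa
full match: cccaacaacatgaaACTACCTa
The part of the microRNA in the level of Hoxb8 was not tested, since the mature form was not measured.

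The remaining RNAs from within the clusters overlapped between the skin types. Hotairm1, an antisense RNA of cluster a, was at 2.21 ± 0.766 CPM in uninvolved and 1.65 ± 0.642 CPM in lesional skin (SD, n = 5). Hotair, an RNA of cluster c that is used as a marker of lower body sites, had 4 counts at most in either skin type. Of 31 genes chosen for their place within or beside the clusters, 28 are in the deposited tables and 16 were tested. Over the 5 mice edgeR called none of these 16, and 2 were lower at an unadjusted p under 0.05 (11.5% of all genes), Hibadh (log2 -0.53, SE 0.21, adjusted p = 0.198) and Hoxb5os (-0.88, SE 0.37, adjusted p = 0.223). The median of the 16 was -0.21, beside -0.01 over all genes. Hibadh is a neighbour of cluster a that encodes an enzyme of valine breakdown.

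RefSeq (GRCm38.p6) has start sites for 22 of the 38 HOX genes. The 250 bases before the RefSeq start of Hoxa9 and of Hoxd9, paralogues of which only the first had no overlap between skin types in these libraries, are printed with each CG pair in capitals. The GENCODE gene spans given above start further upstream, so the window of Hoxa9 lies wholly within its span and that of Hoxd9 ends within its span.
Hoxa9, chr6:52227371-52227620, minus strand: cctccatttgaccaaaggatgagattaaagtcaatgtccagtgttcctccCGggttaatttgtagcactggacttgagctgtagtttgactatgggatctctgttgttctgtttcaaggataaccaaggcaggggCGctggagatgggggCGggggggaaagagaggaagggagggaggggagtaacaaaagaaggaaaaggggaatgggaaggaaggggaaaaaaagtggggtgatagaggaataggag
Hoxd9, chr2:74697513-74697762, plus strand: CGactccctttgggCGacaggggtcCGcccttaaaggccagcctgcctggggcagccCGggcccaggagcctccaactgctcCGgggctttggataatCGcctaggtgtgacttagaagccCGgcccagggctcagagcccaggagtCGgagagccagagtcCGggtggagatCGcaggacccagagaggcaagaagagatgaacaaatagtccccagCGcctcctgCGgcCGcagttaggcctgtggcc
The window of Hoxa9 holds 3 CG pairs and that of Hoxd9 holds 13, with a median of 12.5 over the promoters of HOX genes and of 6 over 32851 promoters of all genes. Neither window holds TGATNNAT, a motif of HOX proteins with a TALE partner, or TAATTA, a core homeodomain motif, searched on both strands. Over all promoters of the same length, 7.68% hold the first and 4.84% the second. Of 24 promoters of HOX genes, 4 hold the first and 2 the second. The 2 windows were picked by how their genes differed between the skin types, and the part of CG pairs or motifs in that was not tested.

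HOX proteins bind DNA with partners of the TALE family, such as MEIS proteins. A list of this family held Meis, Pbx and Pknox genes and also Irx, Mkx and Tgif genes, so not HOX partners alone. All 18 of its genes were tested, and none was called over the 5 mice in edgeR. At an unadjusted p under 0.05, 4 were higher and 1 lower in lesional skin, with a median log2 change of 0.27, beside 10.1% higher, 11.5% lower and a median of -0.01 over all genes. The smallest p-values were those of Irx4 (log2 1.21, SE 0.31), Pknox2 (-1.72, SE 0.61), Tgif2 (0.94, SE 0.36) and Irx3 (0.58, SE 0.24), with adjusted p of 0.114 to 0.214 in edgeR. Meis1 was at 5.09 to 11.1 CPM in the 10 libraries.

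Among 25 other transcription factors that mark body sites, 22 were tested, none was called and 4 were higher and 5 lower at an unadjusted p under 0.05, with a median of 0.25 (all genes: 10.1% higher, 11.5% lower, median -0.01). Tbx4, a factor of the hind limb, was at 0.536 to 3.11 CPM and 0.134 to 0.490 CPM, without overlap (log2 -2.25, SE 0.54, adjusted p = 0.105 in edgeR). It had 3 to 13 counts in the lesional libraries. Pitx1, another factor of the hind limb, went the other way, since it was higher in the lesional biopsy in all 5 mice, by 0.17 to 2.13 log2 units. Its groups overlapped, and 9.13% of all genes were higher in all 5 mice. Tbx15, which helps to set the back to belly pattern of the coat, overlapped (37.2 to 129 and 31.8 to 73.5 CPM, log2 -0.74, SE 0.22). Twist2, a factor of dermal fibroblasts, was at 7.45 to 13.2 CPM in uninvolved and 12.5 to 55.5 CPM in lesional skin (log2 1.32, SE 0.31, adjusted p = 0.104 in edgeR). Of 30 regulators of HOX genes, 27 were tested and none was called in edgeR over the 5 mice, with 2 higher (Gdf11, log2 1.11, SE 0.35, and Jarid2, 0.58, SE 0.21) and 2 lower (Cbx7, -1.0, SE 0.36, and Rarb, -0.70, SE 0.28) at an unadjusted p under 0.05 and a median of 0.09, beside the same shares over all genes.

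Markers of several cell types also differed between the biopsies of a mouse. In mice 2275, 2296, 2392 and 2465 the summed skeletal muscle markers differed by log2 values of -3.10, -2.20, -2.78 and -6.02 between lesional and uninvolved skin. In mouse 2237 they differed by -0.03. The 7 HOX genes differed in that mouse by -1.51 to -4.50, but they were picked for a difference of at least 1 log2 unit in every mouse. Other HOX genes in mouse 2237 did not share it, with 0.03 for Hoxa5, 1.02 for Hoxa3 and 0.09 for Hoxc8. Of the 10 muscle markers, 5 were lower in 5 of 5 mice, that mouse included. The fibroblast sum was higher in lesional skin in all 5 mice, by 0.40 to 2.72 log2 units, and 6 of its 10 markers were higher in 5 of 5 mice, as were 7 of 8 neutrophil markers. The neutrophil sum differed by only 0.07 log2 units in mouse 2237 and by 2.36 to 6.64 in the other mice. Adipocyte markers summed to 3700 to 6080 CPM in uninvolved and 707 to 5960 CPM in lesional skin, Schwann cell markers to 229 to 781 and 192 to 315 CPM, and markers of growing hair to 17.8 to 2590 and 18.1 to 3120 CPM. Sums for macrophages (538 to 1210 and 547 to 1740 CPM), T cells (12.9 to 29.0 and 11.3 to 20.6), endothelium (82.7 to 423 and 175 to 437) and melanocytes (86.7 to 1240 and 57.7 to 429) overlapped as well. The part of muscle, adipocyte, fibroblast, neutrophil and hair follicle content in the HOX difference was not tested.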

How the data were processed

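RNA from 10 mouse skin biopsies was read on an Illumina Genome Analyzer IIx. For every gene symbol the deposited tables hold 1 count column and 1 FPKM column, per the file headers. The submitters' processing notes name cutadapt 1.6, TopHat2 2.0.12, HTSeq, Cufflinks 2.2.1 and mm10. The sources used here name no annotation, strand setting or handling of shared reads. The deposited counts are whole numbers and were taken as raw. The deposited FPKM values, scaled by the authors to length and library size, gave the order of genes, the shares and 1 alternative test.

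The members, lists and tests were chosen with earlier results of these data known. Groups and mouse numbers came from the labels, and all libraries were used. The mice are the replicates, and no 2 libraries correlated above 0.986 in log CPM.

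The main tests used edgeR 4.0.16 in R 4.3.3 (TMM, filterByExpr by group, robust quasi-likelihood F tests), and p-values were adjusted by Benjamini-Hochberg over all tested genes at 0.05. All 10 libraries entered 1 fit with the mouse as a block, since the design text ties both biopsies to a mouse; genotype labels were compared within a skin type over 5 libraries. The 2 libraries of a mouse deviated from their group means with correlations of -0.122, 0.0338, -0.0697 and, for both mice labelled IL-17C+KO, -0.0723 (equal by construction). CPM values are TMM scaled, and the difference within a mouse was taken on log2 CPM after a prior count of 2 was added. Fold changes from FPKM are on the log2 (FPKM + 0.1) scale and understate those of low genes. Alternatives were DESeq2 1.42.0, limma 3.58.1 (voom and FPKM), other scaling, no filter, no block and each mouse left out. Counting error alone is covered by intervals and by the limit that 3 counts set. With 5 pairs an exact sign-flip test of 1 gene cannot go below a two-sided p of 0.0625, so none was used.

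Named were members with a mean of at least 1 CPM, up to 6 members with the smallest p a comparison, up to 4 genes of each list, Il6, and genes that overlap a member; Gm53, Mir196a-1 and other cluster RNAs were added later. Coordinates are from GENCODE M21 (GRCm38, the assembly of mm10), in which 23281 symbols name 1 gene. The tests were tried on simulated data. Values of 1 member and of 2 list genes are not reported here, though counts and sums include them.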

Additional observations from a re-analysis of the deposited data

Results flagged for a closer look

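In 52 groups of 5 libraries (26 HOX genes in uninvolved and in lesional skin), lowest values were compared with the rest of their group by Dixon's criterion on log2 CPM. Chance flags about 1 in 20 groups, which is 2.6 of the 52, and 4 lowest values were flagged, a number near that. All 4 were values of the lesional library of mouse 2465, labelled IL-17C+KO, so they are not independent of each other. Hoxa9 was at 0 CPM there, where a count of 0 allows up to 0.14 CPM, with 0.506 to 1.23 CPM in the other 4 lesional libraries. Hoxb6 was at 0.758 CPM, with 5.41 to 10.2 CPM in the others. Hoxb7 was at 1.43 CPM, with 10.9 to 16.7 CPM in the others. Hoxb8 was at 0.401 CPM, with 8.40 to 10.6 CPM in the others. The same library had the lowest skeletal muscle sum (669 CPM) and the lowest adipocyte sum (707 CPM); their part in these values was not tested.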

How the results depend on the processing

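The counts of HOX genes past the threshold depended on the tool and the block. DESeq2 called 6 HOX genes in IL-17C+ mice, 9 in those labelled IL-17C+KO and 9 over the 5 mice, where the edgeR fit called 0. Over the 5 mice the paired fit called 0, edgeR with no replicate block called 8, limma on FPKM called 1 (of 11 genes called), and fits without 1 mouse called 0 to 6 (6 without mouse 2237). Over all genes DESeq2 called 247, 1157 and 2036 in these comparisons, 6 for their difference, 436 among mice, 16 among IL-17C+ mice, and 11 and 213 between genotype labels in uninvolved and lesional skin. With no replicate block 891 genes were called over the 5 mice and 0 in the mice labelled IL-17C+KO, as with only their own libraries (0). With no filter the counts were 5 for the latter, 15 over the 5 mice and 1 between labels in lesional skin, limma-voom called 4 over the 5 mice, and limma on FPKM called 1 among mice and 1 among IL-17C+ mice. Fits without 1 mouse called 0 to 1249 genes over the 5 mice (1249 without mouse 2237), 0 to 11 in the mice labelled IL-17C+KO and 0 to 241 between labels in uninvolved skin. The cause of these shifts was not tested. The median HOX difference between labels in uninvolved skin, 0.26, was -0.05 with no filter and -0.10 to 0.50 without 1 mouse, so its sign is not stable. The median correlations after subtraction of the skin type mean were 0.254 within a mouse, 0.0634 between lesional, -0.397 between uninvolved and -0.156 between lesional and uninvolved libraries of different mice. The share of numbers 9 and 10 in uninvolved skin, 15.1% by FPKM, was 19.5% by CPM, and without Hoxb7 the share of numbers 1 to 3 was 15.7% and the weighted mean number in lesional skin 5.58. Without mouse 2465 the difference of lesional effects reversed for Hoxb8 (0.11, range without 1 mouse -4.44 to 0.11) and Hoxb7 (0.09, range -2.77 to 0.09). The log2 changes of the 6 HOX genes with the smallest p over the 5 mice stayed below 0 in every alternative. Profiles and shares without each mouse, counts of non-overlap without mouse 2465, and the alternatives for Gm53 were added after the data were seen. With 5 mice, 1 library a biopsy and few counts for Hoxa6 and Hoxc10, small differences were not detectable at this depth.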

Other observations

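Hoxc13, left out of the family above because it acts in the hair shaft, overlapped between the skin types, unlike Hoxc9 and Hoxc10 of the same cluster. It was at 37.9, 5.70, 16.7, 5.50 and 4.18 CPM in the uninvolved and at 49.0, 58.6, 16.4, 2.34 and 18.2 CPM in the lesional libraries of mice 2237, 2275, 2296, 2392 and 2465. The groups overlapped, and the difference ranged from -1.21 to 3.35 on the log2 scale. Markers of growing hair differed between the biopsies by log2 values of -0.34, 7.46, -0.53, -0.68 and 5.24 in the same mice, so Hoxc13 was higher in the lesional biopsy by more than 1 log2 unit in the same 2 mice, 2275 and 2465, in which the hair markers were. Msx2, a homeobox gene of the hair matrix that is also one of those markers, was at 5.26 and 47.5 CPM in the biopsies of mouse 2275 and at 3.38 and 12.4 CPM in those of mouse 2465.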
